A study of Mus musculus with 4 samples.

Results

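Leukocytes are the white blood cells, and 51 genes known as markers of leukocytes, T cells and natural killer (NK) cells are described here in mouse oocytes, out of 55335 genes in the deposited matrix. The 51 were taken from a fixed list of gene symbols, each of which matched 1 gene. They were chosen with values of these libraries in view, so their levels are a description and no test of them supports anything. The series held 4 Smart-Seq2 libraries, made by amplifying full-length cDNA from very little RNA, of oocytes of the C57BL/6 strain. Of these, 2 were labelled control and 2 mutant, and their sample descriptions carry the prefix MII. The mutant group carries a single-base change where exon 3 of *Ezh2* is alternatively spliced. The product of *Ezh2* is the histone methyltransferase of Polycomb repressive complex 2, and the series names a long and a short form. The label does not say which of these forms the mutant oocytes carried, nor the age of the mice or the number of oocytes in a library. No treatment or transgene is named for either group. Each library is taken on its own as control 1, control 2, mutant 1 or mutant 2, since nothing in the labels says that libraries of a group came from separate animals.

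T cells recognise antigen through a receptor that is carried by the CD3 chains and signals through the kinases LCK and ZAP70. NK cells lack that receptor and kill target cells through perforin and granzymes, under control of activating and inhibitory lectin-like receptors, of NKp46 (*Ncr1*) and of class I histocompatibility proteins on the target. Myeloid cells, which include macrophages, carry Fc receptors, lysozyme and the receptor for colony stimulating factor 1. Oocytes are not leukocytes, though some genes of the list are also transcribed in other cells.

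The libraries held between 25090032 and 26617816 counts. The oocyte genes *Gdf9* and *Bmp15*, which encode secreted growth factors, were between 2822 and 3866 CPM (counts scaled by the total of the library) in all 4 libraries. A gene with 0 counts may still hold up to 3 counts, or 0.113 CPM in control 1 and 0.120 CPM in control 2. Genes of the somatic cells around the oocyte were read most in mutant 1. The 13 listed cumulus and granulosa genes summed to 336 CPM in mutant 1 against 56.0 CPM in control 1, 44.1 CPM in control 2 and 37.0 CPM in mutant 2. In bulk libraries, more cells of a type and more RNA per cell cannot be told apart.

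Mutant 2 stood apart for these genes. The 51 members summed to 188 CPM in control 1 (95% Poisson interval 183 to 194), 198 CPM in control 2 (193 to 204), 265 CPM in mutant 1 (258 to 271) and 853 CPM in mutant 2 (841 to 864). The intervals cover counting error only, because amplified reads are not independent molecules. At least 1 count was found for 25 members in control 1, 22 in control 2, 33 in mutant 1 and 50 in mutant 2. At least 10 counts were found for 12, 12, 20 and 47 members in the same order. Of the 51, 42 were highest in mutant 2, 5 in mutant 1, 3 in control 2 and 1 in control 1.

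**Figure D1:**
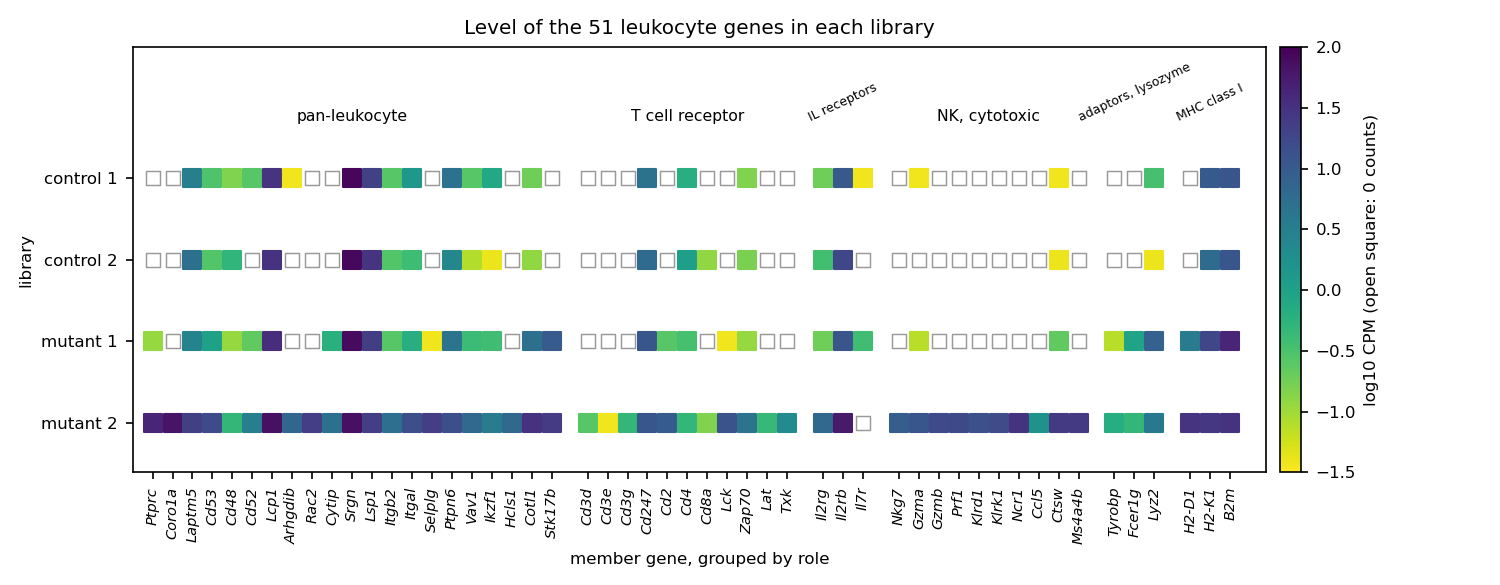
Each square is 1 of the 51 genes (columns, grouped by role) in 1 library (rows). The colour gives the log10 of CPM and an open square marks 0 counts. The row of mutant 2 has 1 open square, at *Il7r*, while the rows of control 1 and control 2 have 26 and 29.

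The NK and cytotoxic members gave the sharpest contrast between libraries. Their 10 genes held 2 counts in all in control 1, 1 count in control 2, 8 counts in mutant 1 and 4490 counts (169 CPM) in mutant 2. *Ncr1* encodes NKp46, an activating receptor used to define NK cells and related innate lymphocytes. It had 0 counts in control 1, control 2 and mutant 1 and 820 counts in mutant 2, at 30.8 CPM (95% Poisson interval 28.8 to 33.0). That is at least 258-fold higher than the 3 counts that a count of 0 allows in each other library. *Ms4a4b*, a membrane protein gene of T and NK lymphocytes, had 701 counts in mutant 2 and 0 in the other 3 libraries, at least 221-fold higher. *Ctsw*, which encodes cathepsin W of cytotoxic lymphocytes, had 1, 1, 6 and 693 counts in control 1, control 2, mutant 1 and mutant 2.

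The killing machinery itself followed the same pattern. *Prf1*, which encodes perforin, the protein that forms pores in the target membrane, had 450 counts (16.9 CPM) in mutant 2 and 0 elsewhere. *Gzmb*, the gene of the protease granzyme B, had 439 counts (16.5 CPM) in mutant 2 and 0 elsewhere. The folds over the limit of 3 counts were at least 142-fold for *Prf1* and at least 138-fold for *Gzmb*. The related protease gene *Gzma* had 306 counts in mutant 2 against 1, 0 and 2 counts in control 1, control 2 and mutant 1. *Nkg7*, a cytotoxic granule membrane gene, had 244 counts in mutant 2 and 0 elsewhere. *Ccl5*, a chemokine gene of activated lymphocytes, was the lowest of the 10 with 44 counts, or 1.65 CPM, and 0 elsewhere.

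Both lectin-like receptor genes among the members were read in mutant 2 alone. *Klrd1*, which encodes CD94, the partner of the NKG2 receptors, had 367 counts (13.8 CPM). *Klrk1*, which encodes the activating receptor NKG2D, had 426 counts (16.0 CPM). Each had 0 counts in the other 3 libraries, which puts them at least 115-fold and at least 134-fold higher. Compared per length in the deposited TPM of mutant 2, the 10 NK and cytotoxic members lay between 10.4 TPM for *Ccl5* and 41.7 TPM for *Ncr1*, with *Ctsw* at 35.2 and *Gzma* at 29.9 TPM.

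**Figure D2:**
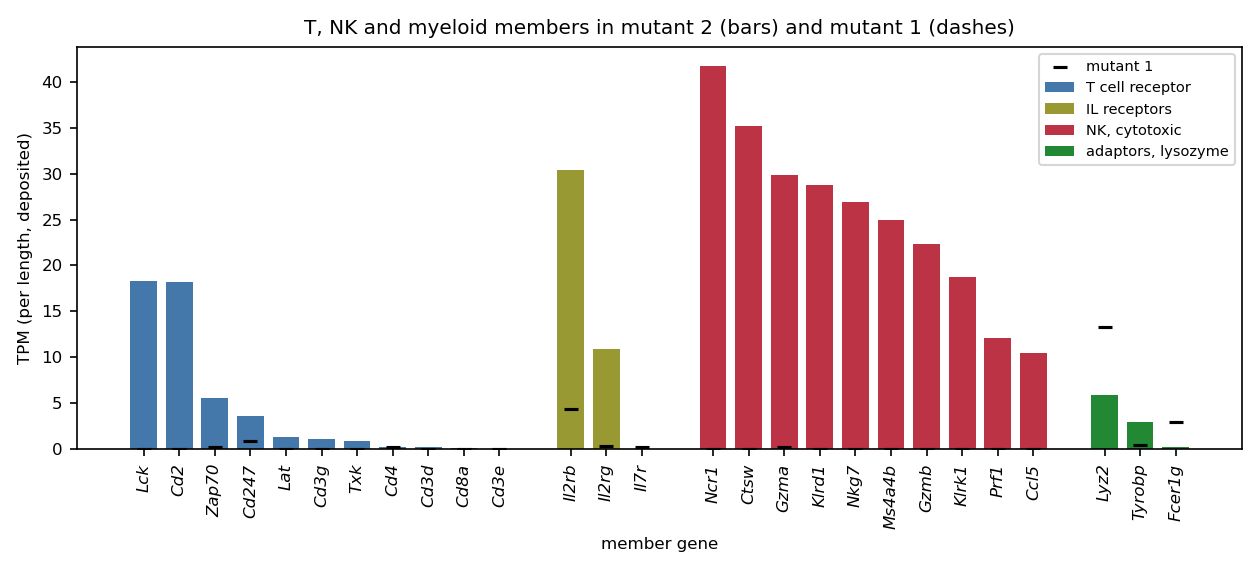
Bars give the deposited TPM, a level per transcript length, of 27 members in mutant 2, grouped by role, and black dashes give the same in mutant 1. All 10 NK and cytotoxic bars reach at least 10.4 TPM, while *Cd3e*, *Cd8a*, *Cd3d* and *Cd4* stay at 0.26 TPM or less, and *Lyz2* and *Fcer1g* have their dashes above their bars.

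The promoter windows of 4 NK and cytotoxic members and of the T cell gene *Cd3e* are shown. These 4 members were picked because each had at least 426 counts in mutant 2 and 0 elsewhere. *Cd3e* was near its limit of detection, with 1 count in mutant 2 and 0 elsewhere. The windows run from 250 bases before to 50 bases after the RefSeq start of each gene (GRCm38.p6), 5′ to 3′ on the gene's strand. They lie at chr7:4337465-4337764 on the + strand for *Ncr1*, which has a further start close by, and at chr10:61297586-61297885 on the + strand for *Prf1*. Those on the - strand are chr14:56262285-56262584 for *Gzmb*, chr6:129623815-129624114 for *Klrk1* and chr9:45009562-45009861 for *Cd3e*. Capitals mark TGTGGT, the core letters bound by RUNX factors, and AGGAAG, letters of an ETS factor site, each on either strand (ACCACA and CTTCCT).
Ncr1: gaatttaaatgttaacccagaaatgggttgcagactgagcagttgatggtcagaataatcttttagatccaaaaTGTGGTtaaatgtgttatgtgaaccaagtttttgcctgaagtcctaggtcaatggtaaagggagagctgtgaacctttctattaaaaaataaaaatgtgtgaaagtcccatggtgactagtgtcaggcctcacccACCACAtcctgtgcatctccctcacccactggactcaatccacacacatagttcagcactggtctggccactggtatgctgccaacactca
Prf1: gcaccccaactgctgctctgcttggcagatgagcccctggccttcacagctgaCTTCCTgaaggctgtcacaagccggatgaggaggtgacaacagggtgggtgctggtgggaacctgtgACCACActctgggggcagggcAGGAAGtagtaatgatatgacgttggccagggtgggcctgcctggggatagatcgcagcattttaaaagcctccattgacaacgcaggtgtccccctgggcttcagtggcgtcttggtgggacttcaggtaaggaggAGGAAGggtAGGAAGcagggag
Gzmb: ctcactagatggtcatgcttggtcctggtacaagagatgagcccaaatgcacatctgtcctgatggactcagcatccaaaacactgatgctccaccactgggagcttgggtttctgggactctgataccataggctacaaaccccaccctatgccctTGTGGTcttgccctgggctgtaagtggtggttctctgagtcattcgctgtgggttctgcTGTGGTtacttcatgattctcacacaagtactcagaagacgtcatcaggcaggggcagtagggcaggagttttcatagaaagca
Klrk1: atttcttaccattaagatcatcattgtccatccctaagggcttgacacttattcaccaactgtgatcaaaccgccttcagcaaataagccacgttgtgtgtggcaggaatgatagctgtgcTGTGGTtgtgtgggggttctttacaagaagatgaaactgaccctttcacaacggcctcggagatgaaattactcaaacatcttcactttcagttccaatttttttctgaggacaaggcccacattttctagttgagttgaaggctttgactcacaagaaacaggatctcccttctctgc
Cd3e: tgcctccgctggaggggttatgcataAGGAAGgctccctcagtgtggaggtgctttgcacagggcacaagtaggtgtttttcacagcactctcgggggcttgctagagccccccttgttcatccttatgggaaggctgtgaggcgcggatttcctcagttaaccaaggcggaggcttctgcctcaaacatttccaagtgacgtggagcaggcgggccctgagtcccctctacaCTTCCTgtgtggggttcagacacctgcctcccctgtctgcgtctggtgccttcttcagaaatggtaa

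A RefSeq promoter window was matched for 37 of the 51 members, and *Cd52*, *Rac2*, *Lsp1*, *Itgb2*, *Itgal*, *Selplg*, *Cotl1*, *Cd2*, *Cd4*, *Il2rb*, *Klrd1*, *Ccl5*, *Ctsw* and *Tyrobp* were not matched. The letters TGTGGT were found on either strand, in any window of the gene, for 19 of the 37 (51.4%) and for 18.9% of the 27025 genes with a window. By role, 6 of 7 matched NK and cytotoxic members held them. So did 4 of 9 of the T cell receptor group and 5 of 14 of the pan-leukocyte group. They were also held by 2 of 2 interleukin receptor chains and 2 of 2 adaptor and lysozyme genes, but by 0 of 3 class I genes. Among the windows not printed, *Lck*, *Zap70*, *Lat* and *Txk* held these letters and *Ms4a4b* did not. The letters AGGAAG were found for 24 of the 37 (64.9%) and for 38.4% of all genes. TCACAC, letters of a T-box site, was found for 9 (24.3%) against 16.4%, and the TATA box letters TATAAA for 9 against 15.7%. In all, 9 motifs were searched, some of which overlap each other, and each was more frequent among the members. These letters were chosen after the values were seen, and a match is a description of the window and not a bound site.

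The genes of the T cell receptor complex divided sharply within mutant 2. The CD3 chains, which every conventional T cell needs for its receptor, were near the limit of detection. *Cd3e* had 1 count, *Cd3d* 7 and *Cd3g* 13 counts in mutant 2, and each had 0 counts in the other 3 libraries. The levels were 0.05, 0.23 and 1.04 TPM, beside 41.7 TPM for *Ncr1* in the same library. The adaptor gene *Lat*, which couples the receptor to its downstream enzymes, had 12 counts in mutant 2 and 0 elsewhere. The coreceptor genes were not higher in mutant 2 than elsewhere beyond a few counts. *Cd4* had 17, 28, 9 and 13 counts and *Cd8a* 0, 3, 0 and 4 counts in control 1, control 2, mutant 1 and mutant 2.

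Of the signalling and adhesion genes that T and NK cells share, *Lck*, *Cd2*, *Zap70* and *Txk* had more counts than each CD3 chain in mutant 2. In TPM *Txk* was below *Cd3g* and above *Cd3d* and *Cd3e*. *Lck*, a kinase of the SRC family, had 0, 0, 1 and 341 counts in control 1, control 2, mutant 1 and mutant 2. *Cd2*, an adhesion receptor gene of T and NK cells, had 0, 0, 7 and 261 counts in the same order. *Zap70*, the kinase that binds phosphorylated receptor chains, had 4, 4, 3 and 123 counts, and *Txk*, a TEC family kinase, had 57 counts in mutant 2 and 0 elsewhere. In mutant 2 *Lck* reached 18.28 TPM, *Cd2* 18.25 TPM, *Zap70* 5.55 TPM and *Txk* 0.92 TPM, beside 1.04 TPM for *Cd3g*.

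*Cd247* encodes the zeta chain, which serves both the T cell receptor and NK receptors, and its matrix counts need care. They were 132, 157, 310 and 304 in control 1, control 2, mutant 1 and mutant 2, and thus alike in both mutant libraries. The deposited expected counts were 3, 3, 10 and 50. The longest *Cd247* transcript shares 2137 identical bases with transcripts of *Pou2f1*, a gene of the POU family. Over the 4 libraries the matrix held 13.7 times the expected counts of *Cd247*, against a median ratio of 1.10 over the 51 members.

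The receptor chains for interleukins 2, 15 and 7 differed from one another. *Il2rb*, the beta chain for interleukins 2 and 15, was at 10.8, 17.8, 12.0 and 57.1 CPM in control 1, control 2, mutant 1 and mutant 2. It was thus read in every library, and 3.21 times as high in mutant 2 as in the next library. *Il2rg*, the common gamma chain, was at 0.188, 0.359, 0.188 and 6.88 CPM in the same order. It shares 730 identical bases with the predicted gene *Gm20489*. *Il7r*, the interleukin 7 receptor of naive and memory T cells and their precursors, had 10 counts in mutant 1, 1 in control 1 and 0 in control 2 and mutant 2. *Il7r* was the 1 member with 0 matrix counts in mutant 2.

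All 21 pan-leukocyte members had at least 10 counts in mutant 2, against 12 in mutant 1 and 7 in each control. Some of them were nearly absent from the controls. *Coro1a*, which encodes the actin regulator coronin 1A of blood cells, had 1713 counts (64.4 CPM) in mutant 2 and 0 in the other 3 libraries, at least 539-fold higher. *Ptprc*, the gene of the phosphatase CD45 on all nucleated blood cells, had 0, 0, 3 and 1150 counts in control 1, control 2, mutant 1 and mutant 2. *Rac2*, a GTPase gene of blood cells, had 619 counts and *Hcls1*, a substrate of LYN, 178 counts in mutant 2, and both had 0 elsewhere. *Selplg*, the ligand of P-selectin, had 1 count in mutant 1, 617 in mutant 2 and 0 in the controls. *Arhgdib* had 1 count in control 1, 187 in mutant 2 and 0 in the others.

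Adhesion, membrane and signalling genes of the same group had low but nonzero counts elsewhere. *Itgal*, which encodes the alpha chain of the integrin LFA-1, was at 1.35, 0.399, 0.640 and 14.5 CPM in control 1, control 2, mutant 1 and mutant 2. Its partner chain *Itgb2* was at 0.263, 0.279, 0.263 and 5.57 CPM. *Cd53*, a tetraspanin gene, was at 0.301, 0.279, 0.978 and 16.5 CPM. *Vav1*, an exchange factor that activates RAC, was at 0.263, 0.0797, 0.414 and 6.85 CPM, and the lymphoid transcription factor gene *Ikzf1* at 0.789, 0.0399, 0.376 and 3.54 CPM. For each of these 5 genes mutant 2 lay above the other 3 libraries, by a ratio to the next library of 4.48 for *Ikzf1* to 20.0 for *Itgb2*. *Cd52*, a small surface glycoprotein gene, had 7, 0, 6 and 84 counts, and *Cytip*, which binds cytohesin, 0, 0, 16 and 140 counts.

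Several pan-leukocyte genes were read in all 4 libraries, some of them most in mutant 2. *Srgn* encodes serglycin, the proteoglycan core of secretory granules. It was at 85.7, 83.6, 78.6 and 72.8 CPM in control 1, control 2, mutant 1 and mutant 2, lowest in mutant 2. *Lsp1*, whose product binds actin, had 560, 752, 639 and 615 counts. *Lcp1*, which encodes plastin 2, an actin bundler, was at 30.2, 31.6, 35.6 and 71.3 CPM, and it resembles the processed pseudogene *Gm6201* over 1805 bases (93.7% identity). *Laptm5*, a lysosomal membrane gene, was at 3.16, 5.22, 2.71 and 22.1 CPM, and *Ptpn6*, the phosphatase SHP-1, at 4.81, 2.43, 4.70 and 14.4 CPM. *Cd48*, a ligand of the NK receptor 2B4, had 4, 13, 3 and 13 matrix counts, no higher in mutant 2 than in control 2. The deposited expected counts of *Cd48* were 1, 0, 1 and 11 in the same order, highest in mutant 2.

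Sorted by their counts in the controls, 9 members had at least 50 counts in both controls, 30 had at most 3 counts in both, and 12 lay between. The 30 genes held 4 counts in all in control 1, 4 in control 2, 442 in mutant 1 and 11252 in mutant 2. *Stk17b*, *H2-D1*, *Fcer1g* and *Cytip* supplied most of the counts of mutant 1. The 9 genes held 4882, 4888, 6126 and 8806 counts in the same order.

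The myeloid member *Lyz2* and the adaptors that NK and myeloid cells share were at 3.84 CPM or less in mutant 2, though above both controls. *Lyz2*, the lysozyme gene of macrophages and neutrophils, was at 0.338 CPM in control 1, 0.0399 CPM in control 2, 8.50 CPM in mutant 1 and 3.84 CPM in mutant 2, and so was highest in mutant 1. It matches its neighbour *Lyz1* at 95.8% over 1264 bases. *Fcer1g*, the common gamma chain of Fc receptors, had 25 counts in mutant 1, 13 in mutant 2 and 0 in the controls. The deposited expected counts of *Fcer1g* were 18 in mutant 1 and 1 in mutant 2. *Tyrobp*, which encodes the adaptor DAP12, had 2 counts in mutant 1, 18 in mutant 2 and 0 in the controls. These 3 members held 253 counts in mutant 1 and 133 in mutant 2.

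Class I histocompatibility genes, which most nucleated cells express and NK receptors read, were higher in both mutant libraries than in both controls. *B2m*, the light chain of every class I protein, measured 12.2 CPM in control 1, 11.7 CPM in control 2, 43.3 CPM in mutant 1 and 30.9 CPM in mutant 2. The heavy chain gene *H2-K1* had 279, 155, 476 and 747 counts in the same order. *H2-D1* had 0 counts in both controls, 94 in mutant 1 and 785 in mutant 2. *H2-D1* and *H2-K1* share 90.6% of 1404 aligned bases, so reads may have been divided between them and their relatives. In the expected counts *H2-K1* was at 371 in mutant 1 and 339 in mutant 2, less than the matrix counts.

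*Cotl1* and *Stk17b* were also read in both mutant libraries and hardly in the controls. The actin-binding gene *Cotl1* was at 0.188, 0.120, 5.34 and 31.6 CPM in control 1, control 2, mutant 1 and mutant 2. *Stk17b*, a kinase gene of lymphocytes and other cells, had 0 counts in both controls, 275 in mutant 1 and 646 in mutant 2.

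Genes of the class I assembly pathway that are not members were described beside them. Of 17 listed genes 11 were tested, of which 2 rose, against 1.77% of all 15493 tested genes (edgeR, p adjusted over all of them and under 0.05). DESeq2 called 8 of this list. The median log2 fold change of the 11 was 2.81, beside 0.05 over all tested genes. *Tap1*, a subunit of the peptide transporter, had 0 counts in either control, 43 in mutant 1 and 87 in mutant 2 (edgeR adjusted p = 0.0317). *Psmb10*, a subunit of the immunoproteasome, had 1, 2, 37 and 59 counts over control 1, control 2, mutant 1 and mutant 2 (edgeR adjusted p = 0.0392). The chaperone genes *Canx*, *Pdia3* and *Calr* were the most abundant of the list, with *Pdia3* at 167, 165, 396 and 251 CPM over the 4 libraries in that order, *Calr* at 84.3 to 208 CPM and *Canx* at 420 to 558 CPM. *Tapbp*, which bridges class I proteins to the transporter, was at 1.54, 0.996, 2.82 and 15.9 CPM in control 1, control 2, mutant 1 and mutant 2. Without control 1 or without control 2 neither *Tap1* nor *Psmb10* passed (edgeR adjusted p between 0.255 and 0.333), and without mutant 2 their edgeR adjusted p was 0.0511 and 0.0944. Cumulus genes were highest in mutant 1 (336 CPM) and NK and cytotoxic members in mutant 2 (169 CPM), and their part in these values was not tested.

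Among the members themselves, 21 of 51 were abundant enough in at least 2 libraries to be tested, and 5 of these passed, all higher in the mutants. They were *Stk17b*, *Cotl1*, *B2m*, *Lyz2* and *H2-D1*, beside 1.77% of all tested genes that passed as higher, 1.98% as lower and 3.75% in either direction. The count rests on the contrast the list was chosen with, so nothing is read from it. It also depended on single libraries, since edgeR called 0 without control 1, 0 without control 2, 38 without mutant 1 and 5 without mutant 2. The members tested in these fits numbered 45, 45, 44 and 21 in the same order. DESeq2 on all 4 libraries called 19 of 51 members, beside 1942 of the 26406 genes it fitted. For 12 of the 21 both mutants lay above both controls, as for 33.1% of all tested genes. *Ncr1*, *Prf1*, *Gzmb*, *Klrd1*, *Klrk1*, *Ptprc* and *Coro1a* were among the 30 members left out of the test, as the filter asks for counts in at least 2 libraries.

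Set against the other 3 libraries one by one, 33 of the 48 members with at least 10 counts in any library were at least 4-fold higher in mutant 2 than in each of them. This held for 2.83% of all 18326 genes with as many counts, where counts under 3 were set to 3. Of the 48, 14 were read in mutant 2 alone and so met the minimum of 10 counts only through that library. The difference lay between mutant 2 and mutant 1 as well as between mutant 2 and the controls. Against mutant 1, 35 of 48 members were at least 4-fold higher and none at least 4-fold lower in mutant 2, beside 4.77% and 8.75% of 17353 genes. With 1 library on each side there is no test. The members were chosen with values of these libraries in view, so nothing is read from either contrast with all genes. The members just inside the 4-fold step over every other library were *Cd3g* at 4.09, *Laptm5* at 4.23 and *Ikzf1* at 4.48. Just outside it were *Lat* at 3.77, *Il2rb* at 3.21 and *Ptpn6* at 3.00.

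Lists of genes that are not members were read in the same libraries. Of 20 listed NK cell genes, 19 had at least 1 count in mutant 2, against 4 in control 1, 5 in control 2 and 7 in mutant 1. At least 10 counts were found for 14 in mutant 2 and for 3, 1 and 3 in the others. Those with the most CPM in mutant 2 were *Klri2*, *Klre1*, *Klrg1* and *Cd244a*. *Klri2* and *Klre1*, partners in lectin-like NK receptors, had 310 and 300 counts in mutant 2 and at most 1 count elsewhere. *Klrg1*, an inhibitory receptor gene of mature NK and effector T cells, had 275 counts in mutant 2, 7 in control 2 and 0 in the others. *Itga2* was the exception, at 27.5 CPM in mutant 1 and 2.26 CPM in mutant 2. Of these 20 genes 4 were tested, edgeR and DESeq2 called 0, and 1 was under an unadjusted p of 0.05.

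Genes that T and NK cells share gave a like picture, and T cell genes a mixed one. Of 18 shared genes with at least 10 counts in any library, 14 were highest in mutant 2 and 7 were at least 4-fold above every other library. *Tbx21*, which encodes the transcription factor T-bet, had 142 counts in mutant 2 and 0 elsewhere. *Sh2d2a*, a T and NK cell adaptor, had 425 counts in mutant 2, 5 in control 1, 6 in control 2 and 0 in mutant 1. *Fasl*, the ligand of the death receptor FAS, had 144 counts there and 4 in control 2. Others of the list, such as *Cd160* at 132 to 168 CPM, *Cd7* at 7.03 to 19.2 CPM and *Lcp2* at 21.6 to 36.9 CPM, were read in all 4 libraries. On the T cell list of 20 genes, 13, 9, 14 and 16 had at least 1 count in control 1, control 2, mutant 1 and mutant 2, and 9, 8, 10 and 14 had at least 10. In mutant 2 that is as many as on the NK list. The most abundant, *Lef1* at 224 to 294 CPM, *Tcf7* at 64.2 to 78.2 CPM and *Skap1* at 54.4 to 81.5 CPM, were likewise read in every library. Of the 10 tested T cell genes edgeR called 0, with 5 under an unadjusted p of 0.05, of which 3 were lower in the mutants. DESeq2 called 3 genes of the T cell list, of which 2 were lower. Of the 12 tested shared genes edgeR called 0, with 3 under an unadjusted p of 0.05, of which 1 was lower. DESeq2 called 1 shared gene, as higher.

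The constant regions of the T cell receptor, named after their values were seen, did not move together. *Trac*, the alpha chain, had 2, 0, 91 and 17 counts in control 1, control 2, mutant 1 and mutant 2. *Trbc1*, a beta chain, had 55, 30, 18 and 272 counts, and *Trbc2*, its close copy, 16, 0, 148 and 94 counts. *Trdc*, the delta chain, had 156 counts in mutant 2 and 0 elsewhere. *Thy1* and *Icos*, surface genes of T cells, had 69 and 43 counts in mutant 2 and 0 elsewhere, whereas the T cell gene *Cd5* had 75, 83, 17 and 11 counts, highest in the controls.

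**Figure D3:**
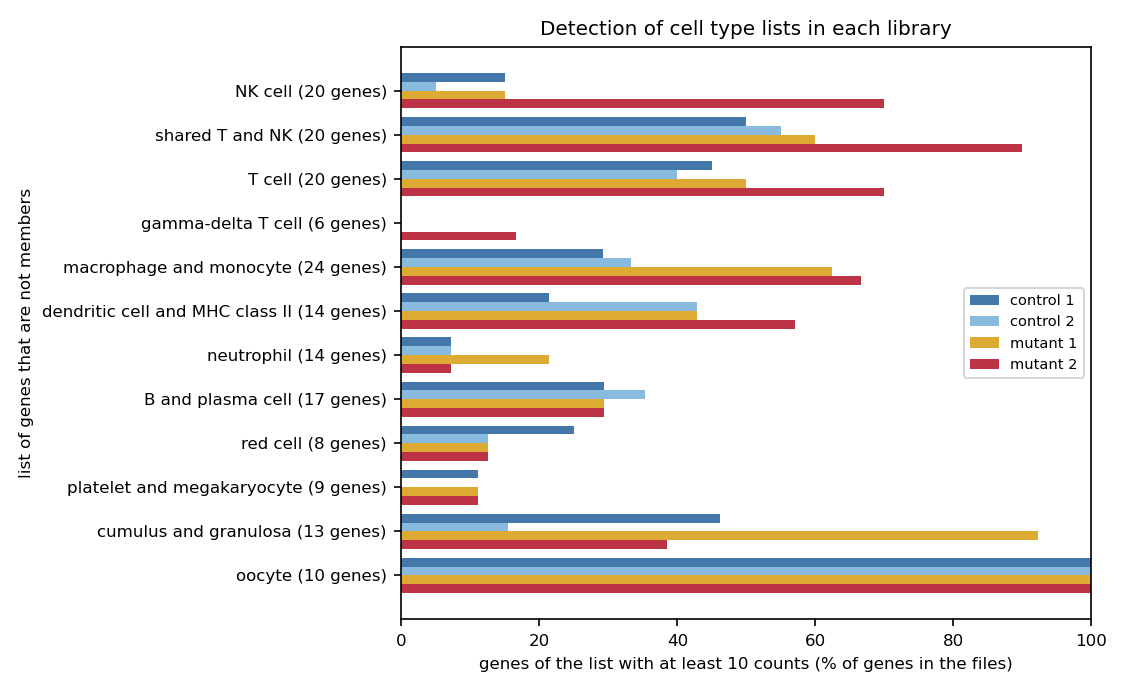
Bars give the share of genes with at least 10 counts, in percent of the genes of each list found in the files, for the 4 libraries. None of these genes is a member. The NK list reaches 14 of 20 genes in mutant 2 and at most 3 elsewhere, the T cell list 14 of 20 in mutant 2 and 8 to 10 elsewhere, the cumulus and granulosa list peaks in mutant 1 with 12 of 13, and all 10 oocyte genes are read in each library.

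Macrophage and monocyte genes were read in both mutant libraries, and their sum was highest in mutant 2, at 96.5 CPM against 58.2 CPM in mutant 1, 47.1 CPM in control 1 and 46.3 CPM in control 2. Of 24 listed genes, 9, 10, 19 and 21 had at least 1 count in control 1, control 2, mutant 1 and mutant 2, and 7, 8, 15 and 16 had at least 10. Several macrophage genes were at the limit of detection in mutant 2, where *Adgre1*, *Cd14* and *Aif1* had 1 count each and *Cd163* had 0. *Csf1r*, the receptor for colony stimulating factor 1, was at 5.07, 6.50, 9.33 and 5.98 CPM, highest in mutant 1. *Ms4a7*, *Cd163* and *Clec7a* had 64, 24 and 25 counts in mutant 1 and 2, 0 and 0 in mutant 2. *Mrc1*, the mannose receptor, was at 31.4 to 39.6 CPM in all 4 libraries, and *Cybb*, an oxidase subunit of phagocytes, had 3, 11, 63 and 86 counts. *Ccr2*, a chemokine receptor gene of monocytes and of some lymphocytes, had 0 counts in the controls, 38 in mutant 1 and 951 in mutant 2. The whole list held 1547 counts in mutant 1 and 2565 in mutant 2, so most of that difference was *Ccr2*. *C1qa*, *C1qc*, *Itgam* and *Cx3cr1* had 28, 13, 10 and 10 counts in mutant 2 and 0 elsewhere. Of 20 listed genes with at least 10 counts in any library, 11 were highest in mutant 2, 6 in mutant 1 and 3 in a control. In mutant 2, 3 of the 20 were at least 4-fold above every other library. Of 11 tested genes edgeR called 0, with 6 under an unadjusted p of 0.05, of which 1 was lower in the mutants. DESeq2 called 4 genes of this list, of which 1 was lower.

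Lists of other lineages varied in how many of their genes were read. Of the B and plasma cell list, 10 of 17 genes had at least 1 count in mutant 2, against 9, 8 and 10 elsewhere. *Ms4a1*, the gene of CD20, was at 137 to 247 CPM in all 4 libraries, while *Cd79a* had at most 2 counts and *Cd79b* 0 counts in each. *Ighm*, the heavy chain of IgM, was at 4.40 to 10.8 CPM, and *Pax5* and *Ebf1*, B cell factors, at 1.43 to 4.34 and 0.339 to 1.28 CPM. The neutrophil list of 14 genes summed to 5.34 CPM in mutant 1 and 1.09 CPM in mutant 2, and *S100a9* had 0 counts in all 4 libraries. Red cell genes summed to 2.10 CPM in control 1 and to 0.527 CPM in mutant 2, and platelet genes to at most 1.13 CPM. Mast cell, thymocyte and gamma-delta T cell lists summed to 1.81, 1.92 and 5.87 CPM in mutant 2, the last of which came from *Trdc*. The innate lymphoid list had 6 to 8 of 10 genes with at least 10 counts and 318 to 360 CPM in each library, led by *Gata3*, *Ahr*, *Rora* and *Il23r*. Endothelial genes summed to 31.3 to 46.7 CPM and stroma genes to 6.35 to 7.15 CPM. Within the stroma list the collagen genes *Col1a1*, *Col3a1* and *Col1a2* had 56, 43 and 22 counts in mutant 2 and at most 2 elsewhere, while *Dcn* was lowest there. There were 21 lists with no edgeR call, which include T cell receptor signalling, gamma chain, trafficking, transcription factor and GIMAP genes. Over them 125 genes were tested and 35 were under an unadjusted p of 0.05, of which 15 were lower in the mutants. DESeq2 called 23 genes of these lists, of which 8 were lower, beside 1942 of the 26406 genes it fitted. The share of all tested genes under an unadjusted p of 0.05 is not given here.

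The class II histocompatibility and dendritic list had 14 genes, of which 7 were tested and 1 rose, beside 1.77% of all tested genes. On this list 4 genes were under an unadjusted p of 0.05, and DESeq2 called 4. The gene that rose was *Cd74*, the invariant chain, with 0 counts in either control, 76 in mutant 1 and 27 in mutant 2 (edgeR adjusted p = 0.0428). Without control 1 or without control 2 it did not pass (edgeR adjusted p = 0.296 and 0.293), nor with total count scaling (edgeR adjusted p = 0.0533). *H2-Aa*, a class II alpha chain, had 96, 64, 398 and 151 counts in control 1, control 2, mutant 1 and mutant 2. *Zbtb46*, a dendritic cell factor, was at 20.2 to 24.0 CPM and *H2-Eb1* at 1.05 to 1.81 CPM. *Itgax*, an integrin gene of dendritic and NK cells, had 0, 0, 8 and 123 counts. *Cd74* and *H2-Aa* were thus higher in mutant 1 than in mutant 2, and *Itgax* the other way.

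Lymphocyte signalling genes outside the list showed which steps were read in mutant 2. Of 15 genes of NK adaptors and killing, 10 were tested and 1 rose, beside 1.77% of all tested genes, and DESeq2 called 2. The gene that rose was *Serpinb6b*, a protease inhibitor gene, with 1 count in control 1, 0 in control 2, 230 in mutant 1 and 148 in mutant 2 (edgeR adjusted p = 0.00727). Without control 1 or without control 2 its edgeR adjusted p was 0.135 and 0.140. *Cst7*, the inhibitor cystatin F, had 125 counts in mutant 2 and 5 in mutant 1, and *Unc13d*, needed to release cytotoxic granules, had 59 and 2 counts, both with 0 in the controls. *Lyst* and *Rab27a*, which act in granule traffic of many cells, were the most abundant, with *Rab27a* at 34.7 to 37.4 CPM in all 4 libraries. *Jak3*, the kinase bound to the common gamma chain, had 0, 0, 1 and 88 counts, while *Jak1*, its widely expressed partner, was at 226 to 290 CPM. *Prkcq*, a protein kinase C of T and NK cells, had 108 counts in mutant 2 and 0 elsewhere. Other signalling genes, among them *Fyn* at 73.6 to 83.9 CPM, *Ptpn22* at 28.7 to 45.3 CPM, *Stat6* at 31.1 to 36.6 CPM and *Stat4* at 21.4 to 30.4 CPM, were read in all 4 libraries.

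Trafficking and transcription factor genes of lymphocytes were mixed. The integrin gene *Itgb7* had 170 counts in mutant 2 and 0 elsewhere. *Cxcr3*, a chemokine receptor of effector lymphocytes, was highest in the controls, at 46.5 and 62.9 CPM against 17.3 and 30.2 CPM. *Runx3*, a factor of cytotoxic lymphocytes, had 277 counts in mutant 2 and 0 elsewhere. *Irf8* and *Id2*, factors of several blood lineages, were at 30.2 and 21.2 CPM in mutant 2 and at most at 5.72 and 2.56 CPM elsewhere. The GIMAP GTPase genes of lymphocytes summed to 13.8, 13.9, 15.4 and 68.5 CPM in control 1, control 2, mutant 1 and mutant 2. All 8 of them were highest in mutant 2, with *Gimap4* at 454 counts there and 0 elsewhere. *Gimap3* had 208 counts there and at most 7 elsewhere.

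*Klrd1* and *Klrk1* lie in a cluster of killer cell lectin-like receptor genes on chromosome 6 (mm10, 128609227 to 131247362), which was described after its values were seen. It holds 28 such genes, 24 of them protein coding. At least 1 count was found for 6 in control 1, 4 in control 2, 6 in mutant 1 and 23 in mutant 2, and the summed levels were 5.67, 4.11, 6.36 and 87.9 CPM. Within the cluster the *Klrb1* end differed from the rest. *Klrb1f* was read in all 4 libraries, with 85, 74, 118 and 195 counts. *Klrb1c*, the NK1.1 gene, had 23, 4, 14 and 129 counts. The Ly49 receptor genes were uneven in mutant 2, with 157 counts for *Klra3*, 97 for *Klra7* and 47 for *Klra1*, but 1 count each for *Klra8* and *Klra9* and 0 for *Klra6*. These genes are close copies of each other, so their separate values are uncertain.

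**Figure D4:**
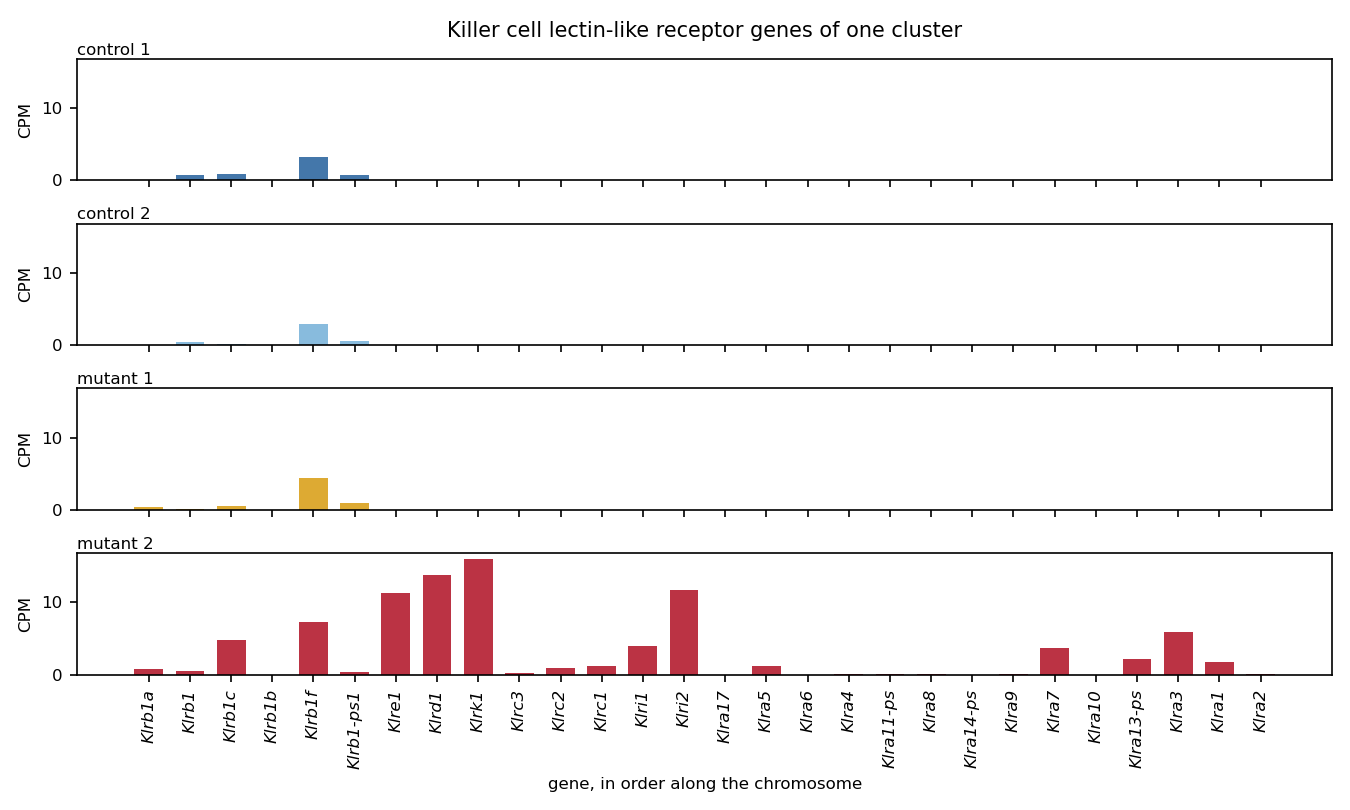
Bars give the CPM of the 28 lectin-like receptor genes in their order along the chromosome, with 1 panel per library on the same scale. *Klrk1* is the highest bar in mutant 2 at 16.0 CPM, and *Klrb1f* is the highest bar in each of the other 3 libraries.

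Genes read in mutant 2 alone were not rare. With at least 10 counts there and 0 counts in the other 3 libraries stood 259 genes, of which 193 are protein coding and 14 are members. The matching numbers were 265 for mutant 1, 43 for control 1 and 25 for control 2, with 0 members in each. Of the 15 such genes with the most counts in mutant 2, predicted names left out, 8 are members. The other 7 were *Gimap4*, *Arhgap45*, *Ctla2a*, *Klri2*, *Runx3*, *Gbp4* and *Dok2*. *Arhgap45* had 438 counts in mutant 2, and *Ctla2a*, a protease inhibitor gene first found in activated T cells, had 422. *Gbp4*, an interferon-induced GTPase gene, had 263 counts and *Dok2*, a docking protein of blood cells, 254.

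Read by lineage, mutant 2 held NK and cytotoxic members at 10.4 to 41.7 TPM and CD3 chains at 1.04 TPM or less. The other T cell receptor genes were not as low, since *Trbc1* was at 50.55 TPM, *Trbc2* at 14.88 TPM, *Trdc* at 4.07 TPM and *Trac* at 3.58 TPM. *Tyrobp* and *Fcer1g*, the adaptor genes that NK and myeloid cells share, were at 2.95 and 0.17 TPM, below every NK and cytotoxic member. The T cell and NK cell lists each had 14 of 20 genes with at least 10 counts in mutant 2. They differed in the other 3 libraries, with 8 to 10 such genes of the T cell list and 1 to 3 of the NK list. The macrophage and monocyte list had 16 of 24 such genes in mutant 2 and its highest sum there, 96.5 CPM. In mutant 2 *Mrc1* had 1054 and *Ccr2* 951 of the 2565 counts of this list, while *Adgre1*, *Cd14*, *Aif1* and *Cd163* had 0 or 1 count. In mutant 1 *Ccr2* had 38 of 1547 counts, so most of the difference in the sum was *Ccr2*. *C1qa*, *C1qc*, *Itgam* and *Cx3cr1* had 10 to 28 counts in mutant 2 and 0 elsewhere. Mutant 1 held 0 counts for 8 of the 10 NK and cytotoxic members, and its highest myeloid member was *Lyz2* with 226 counts. Whether the NK and leukocyte transcripts of mutant 2 came from other cells in the collected sample was not tested.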

How the data were processed

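RNA of oocytes was measured in 4 Smart-Seq2 libraries, grouped by their titles. The submitters' processing notes name cutadapt 1.16, STAR, RSEM and mm10, without roles, and no source used here gives the program behind the matrix. The main values were the raw gene counts in the matrix the authors deposited, beside tables whose headers are those of RSEM gene results. From the tables, the deposited expected counts, rounded to whole numbers for fitting, served as an alternative and the deposited TPM values for levels per length. The deposited FPKM values and gene lengths (other values, per the file headers) were not used. Whether counting used strand is not given, so overlapping and antisense genes are uncertain. Of 55335 gene IDs 55154 matched GENCODE M21, the source of coordinates.

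CPM is the count scaled by the matrix total of the library. Group differences were fitted in R 4.3.3 with edgeR 4.0.16 (TMM, filterByExpr, quasi-likelihood test, genotype only, Benjamini-Hochberg adjusted p under 0.05), checked on simulated data. P-values measure the spread between these libraries, which may be technical. DESeq2 1.42.0, other scalings and filters, a replicate block and each library left out were alternatives. Transcripts of GENCODE were compared with BLAST 2.17.0 (at least 85% identity over 100 bases). Intervals and the limit of 3 counts cover counting error only.

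The members and the 24 lists of other genes (324 names, 2 in no file) were chosen with earlier results of these data known. Genes named outside the members were, per list, the up to 4 with the most CPM in mutant 2 and those that passed, then the 15 genes read most in mutant 2 alone. Others, given to describe a lineage, were chosen after their values were seen. Some genes that the rule takes are given only within their list. A few listed genes are not reported here.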

Additional observations from a re-analysis of the deposited data

How the results depend on the processing

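The number of genes that differed between mutant and control was 581 (274 higher, 307 lower). It was 1942 with DESeq2, 1322 with no filter on low counts and 1213 with the replicate number as a block, and with a library left out it ranged from 22 to 1688, lowest without control 1 and highest without mutant 1. The number of members called was 5, and 19 with DESeq2, 25 with no filter, 3 with total count scaling, 3 when a mean CPM of 1 was required and 7 with the replicate block, and from 0 to 38 with a library left out. The members tested numbered 21 in the main fit, 51 with DESeq2 and with no filter, and 38 with a mean CPM of 1. Control 1 and mutant 1, which share a replicate number, had a correlation of deviations of 0.18 over 15493 genes, and nothing in the labels ties the numbers to a shared source.

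The summed level of the members was 202 CPM in control 1 and 250 CPM in mutant 1 on TMM-scaled library sizes. With the RSEM expected counts it was 139, 145, 209 and 782 CPM in control 1, control 2, mutant 1 and mutant 2. Without the 3 class I genes it was 166, 180.5, 199.9 and 764 CPM, and without *Srgn*, *Lcp1* and *B2m* 60.3, 71.4, 107 and 678 CPM. Mutant 2 was highest and the controls lowest in each of these. With a minimum of 10 counts 12, 12 and 20 members were detected in control 1, control 2 and mutant 1, and 5 B and plasma cell genes in mutant 2. The other counts of detected genes that were recomputed, for the members in each library and for the T cell, NK cell, macrophage and B cell lists in mutant 2 alone, stayed within 1.5 times. Outside these, the NK list fell from 5 genes with at least 1 count to 1 with at least 10 in control 2, and from 7 to 3 in mutant 1. Of the 9 listed or member genes that passed, none changed direction under any alternative that tested it, and each lost its call without control 1 and without control 2. With 2 libraries a group, most small differences are out of reach, and a gene read in 1 library is not tested.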
